A study of Mus musculus with 6 samples.

Results

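The ephrins, the Eph receptors and the Slit, netrin and RGM guidance systems were examined as 1 group of 39 genes, named by symbol: 8 ephrins, 14 Eph receptors, 3 Slits, 4 Robo receptors, 2 netrins, 6 receptors of the Unc5, Dcc and neogenin kind and 2 RGM ligands. Rows of the expression table whose annotation was exactly 1 of these symbols were taken, which gave values for 38 genes of the 19938 genes measured in all, and for a gene with several rows the brightest row, by its mean of the 6 arrays, was kept. Ephb2, an EphB receptor, had no row of its own symbol and was not analysed here. Enterospheres are spheroids that grow from the dissociated muscle layer of the neonatal C57BL/6 mouse gut and contain neural progenitors among other cells of the gut wall. One group of 3 samples, called proliferation, stayed for 11 days in proliferation medium with EGF and FGF. The other group of 3 samples, called differentiation, spent 9 days in that medium and the last 2 days in differentiation medium, which lacked both growth factors and held ascorbic acid-2-phosphate. Neither group carried a transgene or a deletion. The labels state that each sample was prepared from 3 newborn mice while the study's methods give another number of pups from 1 litter for each experiment, so every value is that of a pool of animals and of mixed cells. Free-floating enterospheres were picked at each transfer in both groups, and because growth factors were withdrawn and ascorbic acid-2-phosphate was added in the same medium change, these cannot be told apart.

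Guidance molecules tell a migrating cell or a growing axon where to go. Ephrin-A ligands are tied to the membrane by a lipid anchor and ephrin-B ligands cross it, and both bind Eph receptor tyrosine kinases on the neighbouring cell, so that signals can run into either cell. Slits are secreted proteins that mostly repel through Robo receptors, netrins attract through Dcc and repel through Unc5 receptors, and RGM proteins bind neogenin. Eph signals are known for sorting neural crest cells into streams elsewhere in the embryo. In the gut, netrins and Dcc are known for guiding crest-derived cells towards the mucosa and the pancreas.

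Of the 38 guidance genes, Rgma rose and Unc5b, Epha2 and Ephb6 fell in differentiating enterospheres, and 34 genes did not pass the test. A gene is said to have risen or fallen where its adjusted p from limma was under 0.05, with the adjustment made over all 35556 transcript clusters of the array. The 4 changed genes are 10.5% of the 38, beside 5.91% of all genes (2.94% higher and 2.97% lower) and 4.1% of all transcript clusters. These backgrounds include dim clusters, while 32 of the 38 genes lay at or above the median of the cluster means. With clusters under that median removed, 6 of 32 guidance genes passed (18.8%), beside 11.9% of all clusters kept. The 11.9% counts clusters with or without a gene symbol. A share over genes was not computed for this setting, so these percentages are not of like units. The median log2 fold change, differentiation minus proliferation, was -0.04 for the guidance genes and 0.02 for all genes. Without regard to direction the median size of the change was 0.17 for the guidance genes and 0.11 for all genes. In 16 of the 38 genes, 42.1%, the arrays of the groups did not overlap, 4 with the differentiation group above and 12 with it below, beside 27.5% of all genes (14.6% above and 12.9% below). The mean was higher in differentiation in 18 of the 38 genes and in 56.3% of all genes. At an unadjusted p under 0.05 there were 14 guidance genes (36.8%), 4 higher and 10 lower, beside 19.1% of all genes. These shares over all genes include dim genes too. The study names 5 of the 38 genes (Epha2, Epha5, Robo2, Rgma and Unc5b), having chosen them on these same samples, so their direction is not independent evidence. By the methods' t-test with at least a 1.5-fold change, those 5 passed and no other, beside 5.66% of all genes. In limma 1 of the other 33 genes passed (3.03%). These 33 are what remains after genes chosen on these same samples were taken out, so their share cannot be set against that of all genes. The counts also rest on single arrays: with 1 array left out, between 0 and 4 of the 38 genes passed. By the study's methods, enterospheres of the same cultures went into both media, which the main test did not take into account. With the replicate number as a block none of the 4 genes passed in limma (adjusted p from 0.0724 to 0.124), and 12 of the 38 had an unadjusted p under 0.05. In the unpaired limma fit without proliferation replicate 2, 4 of the 38 had an adjusted p under 0.05 (Epha5, Epha2, Ephb6 and Robo2), beside 5.05% of all genes.

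**Figure D1:**
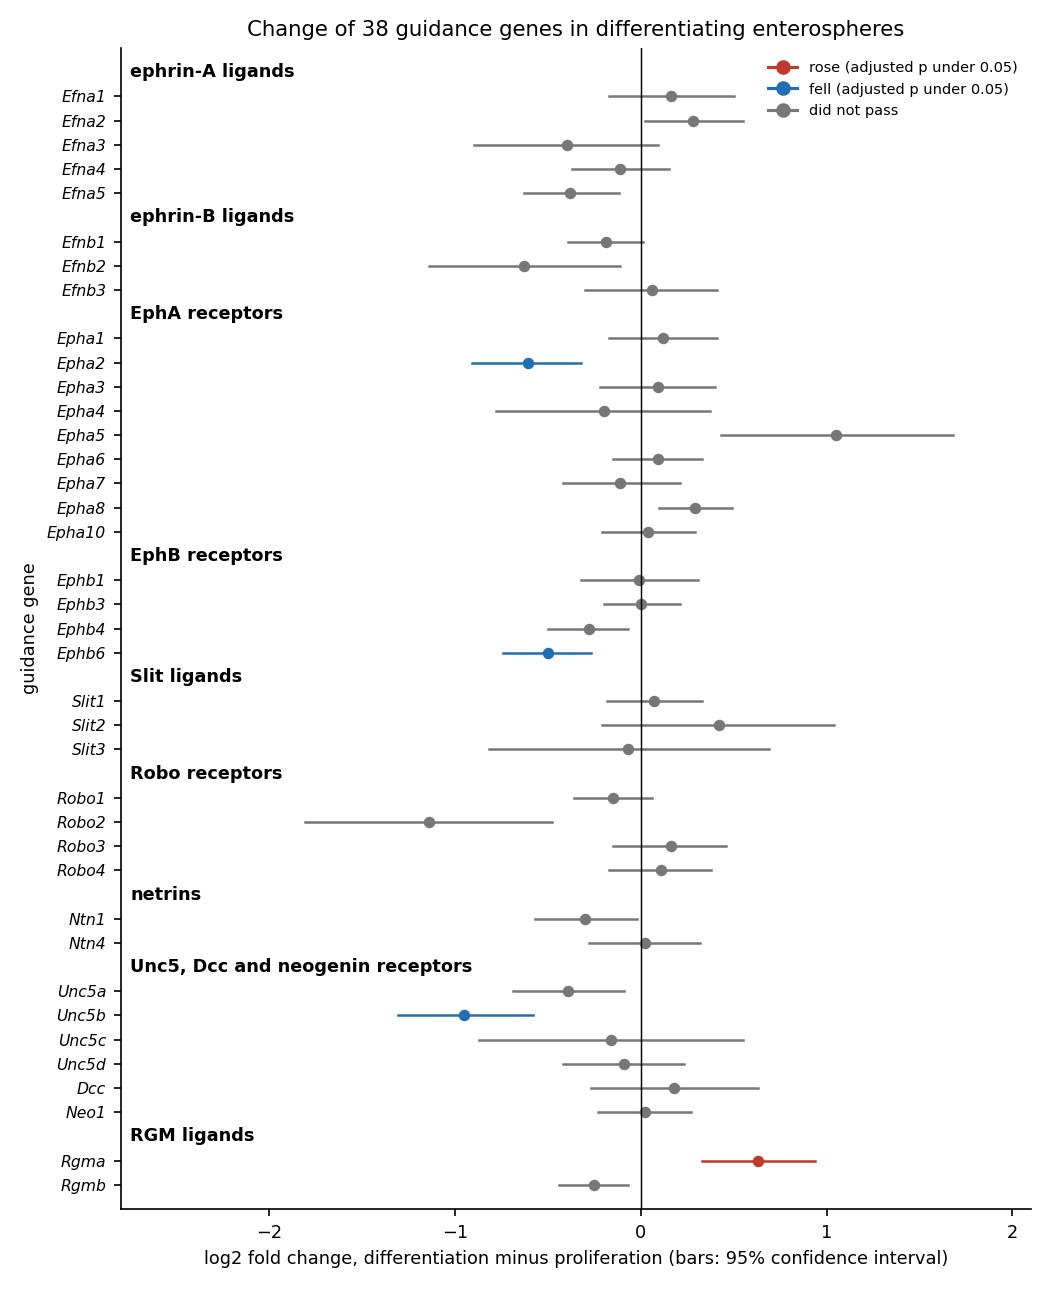
Log2 fold change, differentiation minus proliferation, of the 38 guidance genes (points) with 95% confidence intervals from limma (bars), grouped by role, with 3 arrays per group. The 3 blue genes fell, the red gene rose and the grey genes did not pass, among them Robo2 at -1.14 and Epha5 at 1.05, which have the largest changes and wide intervals.

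Unc5b encodes a netrin receptor that mediates repulsion and is also known from growing blood vessels, and it had the lowest p of the 38 genes. Its log2 values (transcript cluster 10369388) were 10.16, 9.77 and 9.58 on the proliferation arrays and 8.79, 9.00 and 8.87 on the differentiation arrays. All 3 differentiation arrays lay below all 3 proliferation arrays, and the means lay further apart than the arrays within either group. The mean went from 9.84 ± 0.29 to 8.89 ± 0.11 (SD, n = 3), a 1.93-fold decrease, or -0.95 as a log2 fold change (SE 0.16), with an adjusted p of 0.0219 in limma. Unc5b passed without proliferation replicate 1 or 3 (adjusted p = 0.025 and 0.0431) and missed the threshold without proliferation replicate 2 (0.0534) or differentiation replicate 1, 2 or 3 (0.113, 0.0616 and 0.0694).

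Epha2 encodes an EphA receptor known from epithelia and from progenitor cells of the brain. Its log2 values were 6.80, 6.43 and 6.69 in proliferation and 5.90, 6.03 and 6.15 in differentiation. The differentiation mean of 6.03 was under 6.15, the median over all clusters of the array. Whether Epha2 was detected there was not tested. The groups did not overlap, and proliferation replicate 2 was the lowest of its group. The log2 fold change was -0.61 (SE 0.12, adjusted p = 0.0455), a 1.53-fold decrease. With proliferation replicate 2 left out the adjusted p was 0.0305, and with any of the other arrays left out it lay between 0.0716 and 0.193.

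Ephb6 encodes an Eph receptor whose kinase domain is inactive, so that it signals through partner receptors. It measured 8.98, 8.74 and 8.99 in proliferation and 8.33, 8.43 and 8.45 in differentiation on the log2 scale. Every differentiation array was lower than every proliferation array, and both groups were tight. The log2 fold change was -0.50 (SE 0.10, adjusted p = 0.0426), a 1.42-fold decrease, and Ephb6 was the changed gene of the group that the study does not name. As for Epha2, the test was passed without proliferation replicate 2 (adjusted p = 0.0305) and missed without any other array (from 0.0885 to 0.193).

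Rgma encodes repulsive guidance molecule A, a membrane-anchored ligand of neogenin that inhibits the outgrowth of axons and also acts as a coreceptor for BMPs. Its log2 values were 8.87, 8.51 and 8.44 in proliferation and 9.16, 9.30 and 9.25 in differentiation. The 3 differentiation arrays lay close together and above all proliferation arrays, of which replicate 1 was the highest. The log2 fold change was 0.63 (SE 0.13, adjusted p = 0.0446), a 1.55-fold increase. Without proliferation replicate 1 the adjusted p was 0.0151, and without any other array it lay between 0.107 and 0.161.

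The promoters of the 3 genes that fell are shown because these genes moved the same way, each as the window from 250 bases before to 50 bases after the start of a RefSeq transcript on GRCm38.p6, read 5′ to 3′ along the gene. Capitals mark the GC box GGGCGG on either strand, a motif bound by Sp-type factors. The Unc5b window is chr10:60831532-60831831 on the minus strand, the Epha2 window chr4:141300971-141301270 on the plus strand and the Ephb6 window chr6:41605261-41605560 on the plus strand.
Unc5b: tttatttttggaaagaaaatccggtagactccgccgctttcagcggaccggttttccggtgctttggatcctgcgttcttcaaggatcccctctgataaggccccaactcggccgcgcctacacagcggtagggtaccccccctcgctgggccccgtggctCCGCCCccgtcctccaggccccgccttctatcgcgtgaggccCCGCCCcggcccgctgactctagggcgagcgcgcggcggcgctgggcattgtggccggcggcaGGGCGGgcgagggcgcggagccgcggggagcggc
Epha2: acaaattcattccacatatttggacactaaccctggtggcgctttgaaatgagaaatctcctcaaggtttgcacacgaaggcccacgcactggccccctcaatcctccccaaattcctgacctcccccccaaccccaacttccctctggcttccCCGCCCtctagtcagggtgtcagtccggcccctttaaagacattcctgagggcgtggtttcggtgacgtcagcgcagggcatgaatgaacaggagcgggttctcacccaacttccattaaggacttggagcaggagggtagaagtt
Ephb6: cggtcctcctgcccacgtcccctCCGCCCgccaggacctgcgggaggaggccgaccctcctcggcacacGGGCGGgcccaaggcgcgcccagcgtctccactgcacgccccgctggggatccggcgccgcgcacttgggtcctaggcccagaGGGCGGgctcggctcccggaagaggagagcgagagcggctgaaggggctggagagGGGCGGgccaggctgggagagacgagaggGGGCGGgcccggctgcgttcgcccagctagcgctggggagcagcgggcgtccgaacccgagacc
The GC box occurs 3 times in the Unc5b window, 1 time in that of Epha2 and 5 times in that of Ephb6, and it is present in 35.7% of all 32851 windows of the table. The windows of Unc5b and Ephb6 held 36 and 34 CpG dinucleotides and that of Epha2 held 10, beside a median of 7 over all windows. The ETS-type motif CCGGAA, searched on both strands, occurs 1 time each in the windows of Unc5b and Ephb6 and was not found in that of Epha2, and 14.9% of all windows hold it. None of the 3 windows held the E-box CACGTG (7.15% of all windows), the TATA box TATAAA (13.6%) or the AP-1 motif TGANTCA (7.81%), also searched on both strands. Of the 38 guidance genes 32 matched at least 1 window of the table by symbol, 39 windows in all, with a median of 22 CpG dinucleotides. The GC box was present in 28 of the 39 windows (71.8%) and the ETS-type motif in 2, those of Unc5b and Ephb6. A match in these letters describes the window and is not a site of binding.

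Among the ligands of the Eph system, none of 5 ephrin-A and 3 ephrin-B genes passed limma's test, beside 5.91% of all genes. An unadjusted p under 0.05 was found for 3 of the 8 (37.5%), beside 19.1% of all genes. The groups did not overlap in 4 of the 8 (50%), beside 27.5% of all genes. Efna5, a ligand that repels axons in many mapped projections, measured 10.69, 10.50 and 10.60 in proliferation and 10.14, 10.40 and 10.12 in differentiation. Its groups did not overlap, with the differentiation arrays lower (log2 fold change -0.38, 95% confidence interval -0.63 to -0.12, adjusted p = 0.131). Efnb2 encodes a transmembrane ligand known from arteries. Its values were 9.32, 8.41 and 8.79 in proliferation and 8.17, 8.27 and 8.19 in differentiation. The differentiation arrays lay within 0.10 of each other below a proliferation group that spanned 0.91, and the log2 fold change was -0.63 (interval -1.14 to -0.11, adjusted p = 0.213). Efnb1, a further transmembrane ligand, also showed no overlap, with a log2 fold change of -0.19 (interval -0.39 to 0.01, adjusted p = 0.346). Efna2 went the other way without overlap, with a log2 fold change of 0.28 (interval 0.02 to 0.55, adjusted p = 0.287). The remaining ephrins, Efna1, Efna3, Efna4 and Efnb3, overlapped between the groups, with log2 fold changes from -0.40 for Efna3 to 0.16 for Efna1.

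The 13 Eph receptors measured included the decreases of Epha2 and Ephb6 (15.4% changed, beside 5.91% of all genes), and the other 11 did not pass. Epha5, a receptor of the developing brain known for topographic maps and synapses, had the highest log2 fold change of all 38 guidance genes. Its log2 values were 8.00, 7.08 and 8.04 in proliferation and 8.74, 8.95 and 8.59 in differentiation. Every differentiation array was above every proliferation array, with proliferation replicate 2 far below its group. The difference was 1.05 (SE 0.26, interval 0.43 to 1.68), a 2.08-fold higher mean, and did not pass with an adjusted p of 0.0901. Without proliferation replicate 2 the change was smaller, at 0.74, and passed (adjusted p = 0.0413), and with another array left out the adjusted p lay between 0.105 and 0.266. Epha5 also passed with dim clusters removed (adjusted p = 0.0455) or with the clusters of each gene averaged (0.0321). Both settings ran limma again on fewer rows. The unadjusted p of Epha5 also fell, from 0.00542 to 0.00508 and 0.00255.

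Epha8, an EphA receptor of the midbrain, had non-overlapping groups, with values of 6.80, 6.79 and 6.95 in proliferation and 7.14, 7.19 and 7.10 in differentiation (log2 fold change 0.29, interval 0.10 to 0.49, adjusted p = 0.129). Ephb4, the receptor of Efnb2 on veins, was lower on every differentiation array, with a log2 fold change of -0.28 (interval -0.50 to -0.07, adjusted p = 0.183). Epha4, a receptor that binds ephrins of both classes, measured 9.54, 8.54 and 9.14 in proliferation and 8.81, 9.02 and 8.79 in differentiation. Its proliferation arrays lay on both sides of the differentiation arrays, and the interval of its difference ran from -0.78 to 0.37. Ephb3, which acts in the positioning of intestinal epithelial cells, differed by 0.00 with an interval from -0.20 to 0.21, so a change of 1.5-fold in either direction lies outside that interval. Epha1, Epha3, Epha6, Epha7, Epha10 and Ephb1 overlapped between the groups and had log2 fold changes between -0.11 and 0.12. Epha10 and Ephb1 each had a dimmer cluster besides the one used, and neither cluster of either gene passed. Epha1, Epha6 and Ephb1 were dim, with means under the 6.15 that is the median over all clusters of the array, and whether they were detected was not tested.

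In the Slit and Robo system no gene of 7 passed limma's test and 1, Robo2, had an unadjusted p under 0.05. Over all genes 5.91% passed and 19.1% had such an unadjusted p. By its means Robo2 had the largest decrease of the 38 genes. It encodes a Slit receptor that keeps axons away from Slit sources. Its log2 values were 10.04, 8.82 and 9.38 in proliferation and 8.28, 8.30 and 8.23 in differentiation. The differentiation arrays agreed within 0.07 and lay below all proliferation arrays, which spanned 1.22. The log2 fold change was -1.14 (SE 0.28, interval -1.81 to -0.48, adjusted p = 0.084), a 2.21-fold lower mean. Without proliferation replicate 2, the lowest of its group, the change was -1.44 and passed (adjusted p = 0.0211), and without another array the adjusted p lay between 0.0723 and 0.256. It passed with dim clusters removed (adjusted p = 0.0421) and with the clusters of each gene averaged (0.029).

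Robo1, the other widely expressed Slit receptor, had non-overlapping groups with a log2 fold change of -0.15 (interval -0.36 to 0.06, adjusted p = 0.503). The Slit ligands themselves overlapped between the groups. Slit2 measured 9.85, 8.78 and 9.63 in proliferation and 9.80, 9.92 and 9.78 in differentiation, and Slit3 measured 10.64, 9.27 and 10.15 in proliferation and 9.90, 9.92 and 10.04 in differentiation. In both genes proliferation replicate 2 lay below all other arrays, while the other proliferation arrays lay near or above the differentiation group. The log2 fold changes were 0.42 for Slit2 (interval -0.21 to 1.04) and -0.07 for Slit3 (interval -0.82 to 0.69). Slit1 differed by 0.07 with an interval from -0.18 to 0.33. Robo3, a receptor of commissural axons, and Robo4, a receptor of endothelial cells, lay below the median cluster mean, with log2 fold changes of 0.16 and 0.11 that did not pass (adjusted p = 0.64 and 0.735).

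**Figure D2:**
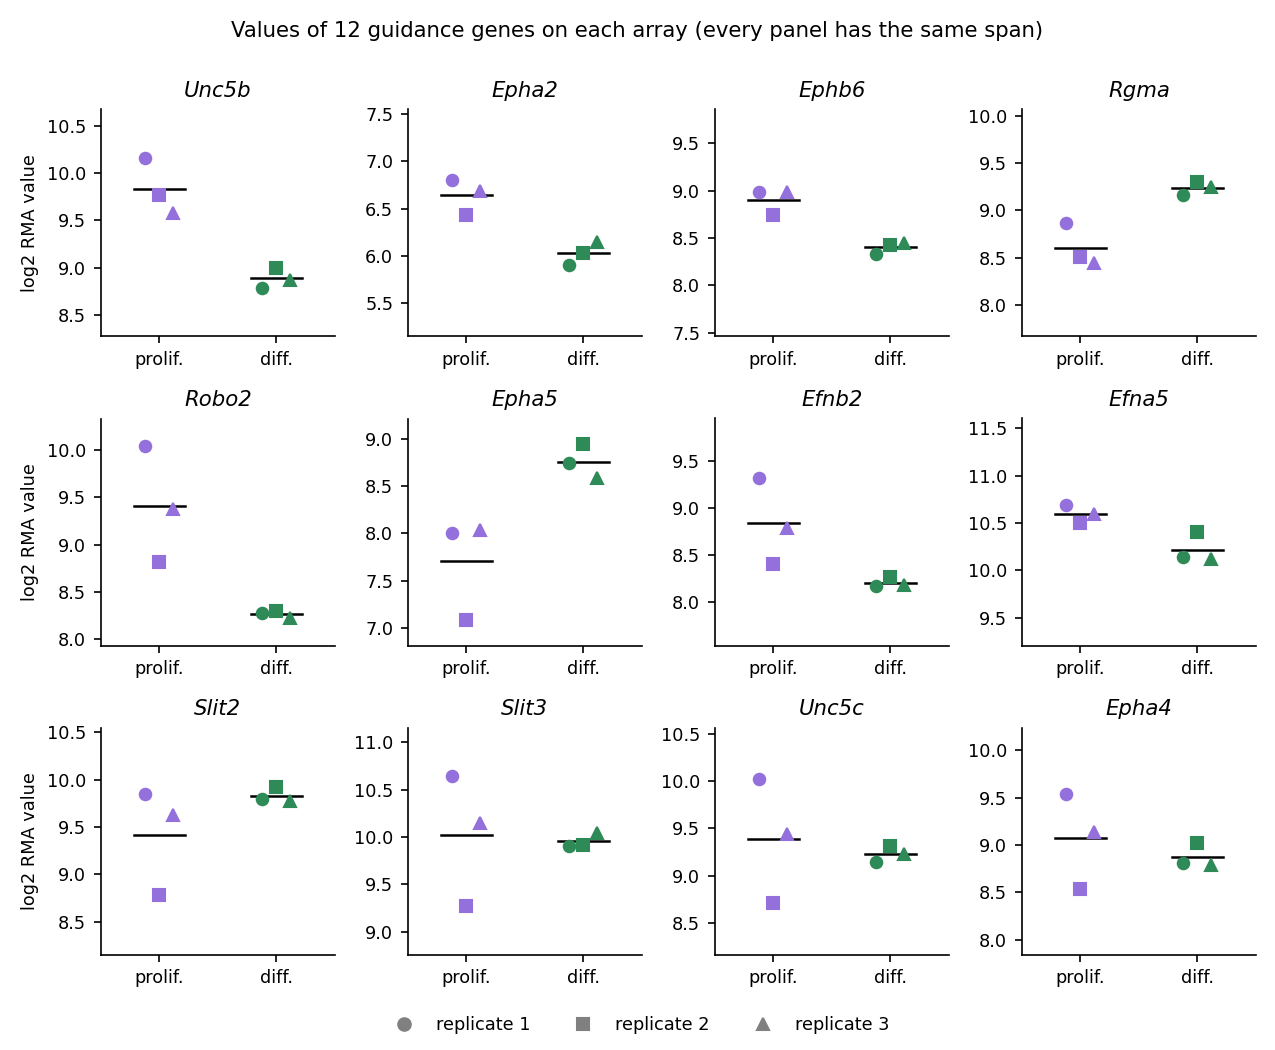
Log2 RMA values of 12 guidance genes on each of the 6 arrays, with a symbol for each replicate number and a bar for the group mean; every panel covers the same number of log2 units, but values are not comparable between genes. The differentiation arrays span less than the proliferation arrays in all panels but that of Efna5, and proliferation replicate 2 (square) is the lowest proliferation array in 10 panels.

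Of the receptors for netrins and RGM proteins, Unc5b fell and the other 5 did not pass (16.7% changed, beside 5.91% of all genes). Unc5a, the neuronal relative of Unc5b, measured 9.82, 9.38 and 9.55 in proliferation and 9.09, 9.24 and 9.24 in differentiation. All differentiation arrays were lower, with a log2 fold change of -0.39 (interval -0.69 to -0.09, adjusted p = 0.183). Unc5c measured 10.02, 8.71 and 9.44 in proliferation and 9.15, 9.31 and 9.23 in differentiation, so that 2 proliferation arrays were above and 1 was below the whole differentiation group (log2 fold change -0.16, interval -0.87 to 0.55). Unc5d differed by -0.09 and lay near the median cluster mean, and its dimmer cluster did not pass either. Dcc, the attractive netrin receptor, measured 7.83, 7.20 and 7.83 in proliferation and 7.82, 7.97 and 7.63 in differentiation. The groups overlapped (log2 fold change 0.18, interval -0.27 to 0.63, adjusted p = 0.725). Neo1 encodes neogenin, the receptor of the RGM proteins, and differed by 0.02 with an interval from -0.23 to 0.27. The ligand Rgma thus rose while its receptor showed no change past the test, and the difference between these genes was not tested.

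Ntn1, the netrin that binds Dcc and the Unc5 receptors, measured 9.03, 8.65 and 8.84 in proliferation and 8.45, 8.55 and 8.63 in differentiation. The groups were separate by a narrow margin, with a log2 fold change of -0.30 (interval -0.57 to -0.02, adjusted p = 0.28). Ntn4, a netrin of basement membranes, differed by 0.02 with an interval from -0.28 to 0.32. Rgmb, the close relative of Rgma, measured 11.75, 11.84 and 11.79 in proliferation and 11.55, 11.47 and 11.60 in differentiation. Its groups were tight and did not overlap, with the differentiation arrays lower (log2 fold change -0.25, interval -0.44 to -0.07, adjusted p = 0.167), so the means of the RGM ligands moved in opposite directions. Rgmb passed with limma-trend and a robust prior, which were changed together (adjusted p = 0.0439).

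The spread of the guidance genes differed between the groups. In 30 of the 38 genes (78.9%) the 3 proliferation arrays spanned more than the 3 differentiation arrays, beside 54.6% of all genes. In 5 genes (13.2%), Slit3, Unc5c, Robo2, Slit2 and Epha4, the proliferation arrays spanned more than 1 log2 unit, beside 1.48% of all genes, and no guidance gene had such a span among the differentiation arrays (0.14% of all genes). The spans were 1.37 for Slit3, 1.31 for Unc5c, 1.22 for Robo2, 1.07 for Slit2 and 1.01 for Epha4, and the next were 0.97 for Epha5 and 0.91 for Efnb2. In each of these 7 genes the lowest proliferation array was replicate 2. Replicate 2 was the lowest of its group in 25 of the 38 genes (65.8%), beside 42.2% of all genes. This pattern was picked out after the values had been seen.

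**Figure D3:**
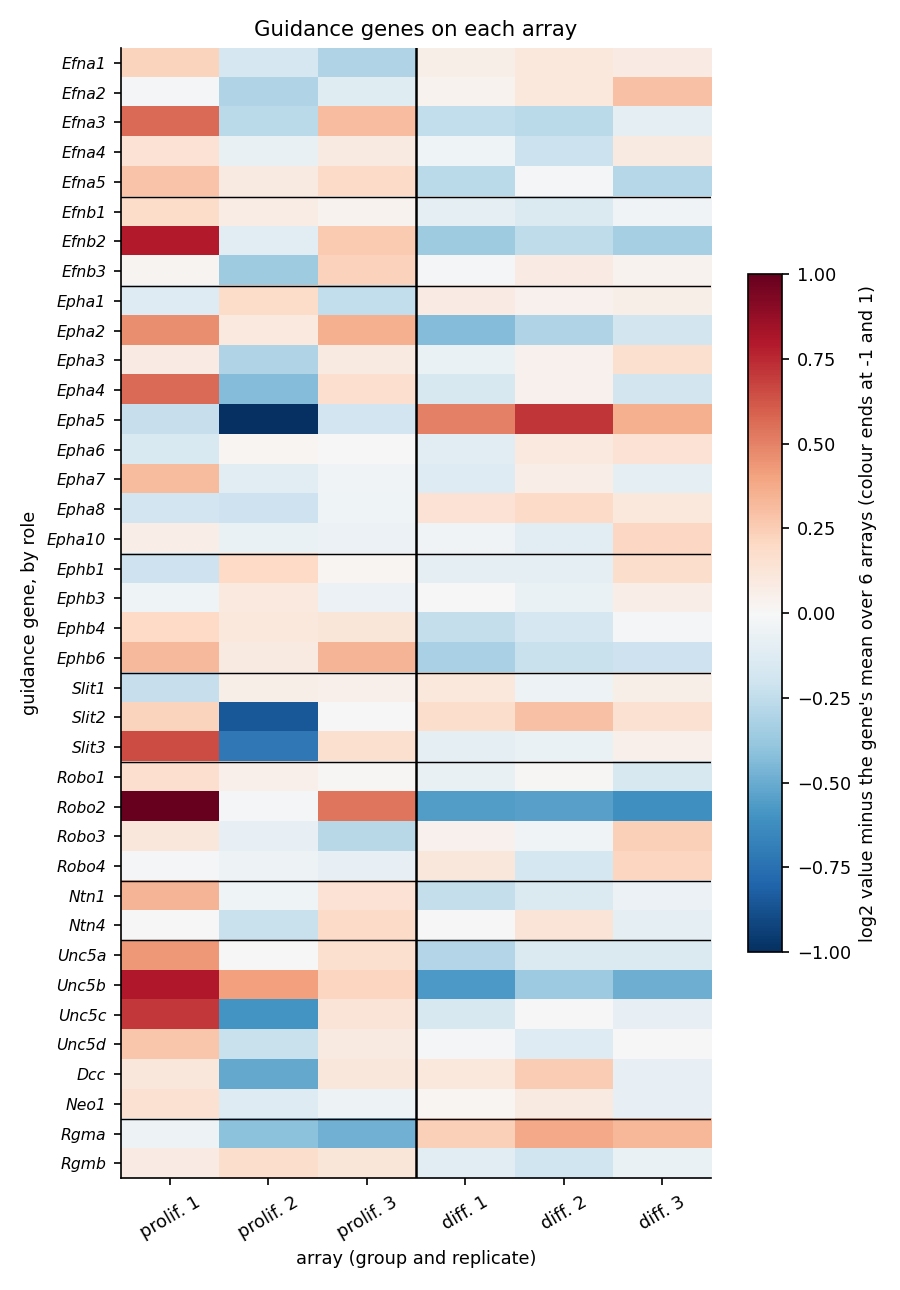
Each cell gives the log2 value of 1 guidance gene on 1 array minus that gene's mean over the 6 arrays, with red above and blue below the mean and rows ordered by role. Proliferation replicate 2 is blue for Slit2, Slit3, Unc5c, Epha4, Epha5 and Dcc, and the colour scale ends at -1 and 1 log2 unit, which Robo2 on proliferation replicate 1 and Epha5 on replicate 2 reach.

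Marker lists of cell types also differed between the arrays, and whether they vary together with the guidance genes was not tested. The sum of the signals of 13 neuronal genes was 13.71 on proliferation replicate 2 on the log2 scale, beside 14.14 and 14.19 on the other proliferation arrays and 14.17 to 14.32 on the differentiation arrays, and each of the 13 was lowest in replicate 2 within its group. Of these 13 genes Tubb3, a tubulin of neurons, and Gap43, a protein of growing axons, rose (log2 fold changes 0.98 and 0.69, adjusted p = 0.0207 and 0.00808 in limma) and 11 did not pass. For 6 markers of interstitial cells of Cajal, the pacemaker cells of the gut, the sum was 12.96 on replicate 2, 13.31 and 13.32 on the other proliferation arrays and 12.57 to 12.71 in differentiation. Of these 6 genes Ano1 and Prkcq fell and 4 did not pass. Fibroblast markers (9 genes) summed to 13.28 on replicate 2, 13.91 and 13.49 on the other proliferation arrays and 13.66 to 13.80 in differentiation, where Dpt rose and 8 did not pass. Division genes went the opposite way within the proliferation group, with 14.13 on replicate 2 against 13.46 and 13.75, and 11 of 12 fell in differentiation, led by Bub1, Mki67 and Top2a (log2 fold changes -2.52, -2.35 and -2.27), where the sum lay between 12.25 and 12.43. The part of these cell types and of division in the changes of the guidance genes was not tested, and in such bulk samples fewer cells of a type and less RNA per cell cannot be told apart.

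Markers of other cells gave the following picture. Of 12 measured markers of enteric neural crest and glia, which define the labelled tissue, 11 lay above the median cluster mean, among them Sox10 and Ret. Their sum was 14.39 to 14.71 in proliferation and 14.69 to 14.74 in differentiation, and 3 (Nes, Gfap and Ngfr) rose and 2 (Fabp7 and S100b) fell. Smooth muscle markers (10 genes) summed to 11.21 to 11.37 in proliferation and 11.38 to 11.51 in differentiation, with 4 increases, led by Tagln and Actg2, and the decrease of Smtn. Of 10 endothelial markers 8, among them Pecam1 and Tie1, lay below the median cluster mean, none passed limma's test and 1 had an unadjusted p under 0.05. Their sum was 9.08 to 9.30 in proliferation and 9.20 to 9.32 in differentiation. With most of these markers dim, that sum may not show whether endothelial cells changed. Efnb2, Ephb4, Robo4 and Unc5b are known from blood vessels, and the part of endothelial cells in their values was not tested. Of the markers of macrophages (9 genes), epithelium (9) and mesothelium (6), 9, 7 and 5 lay below the median cluster mean, and 1 passed, the increase of Gpm6a, while no macrophage or epithelial marker had an unadjusted p under 0.05.

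**Figure D4:**
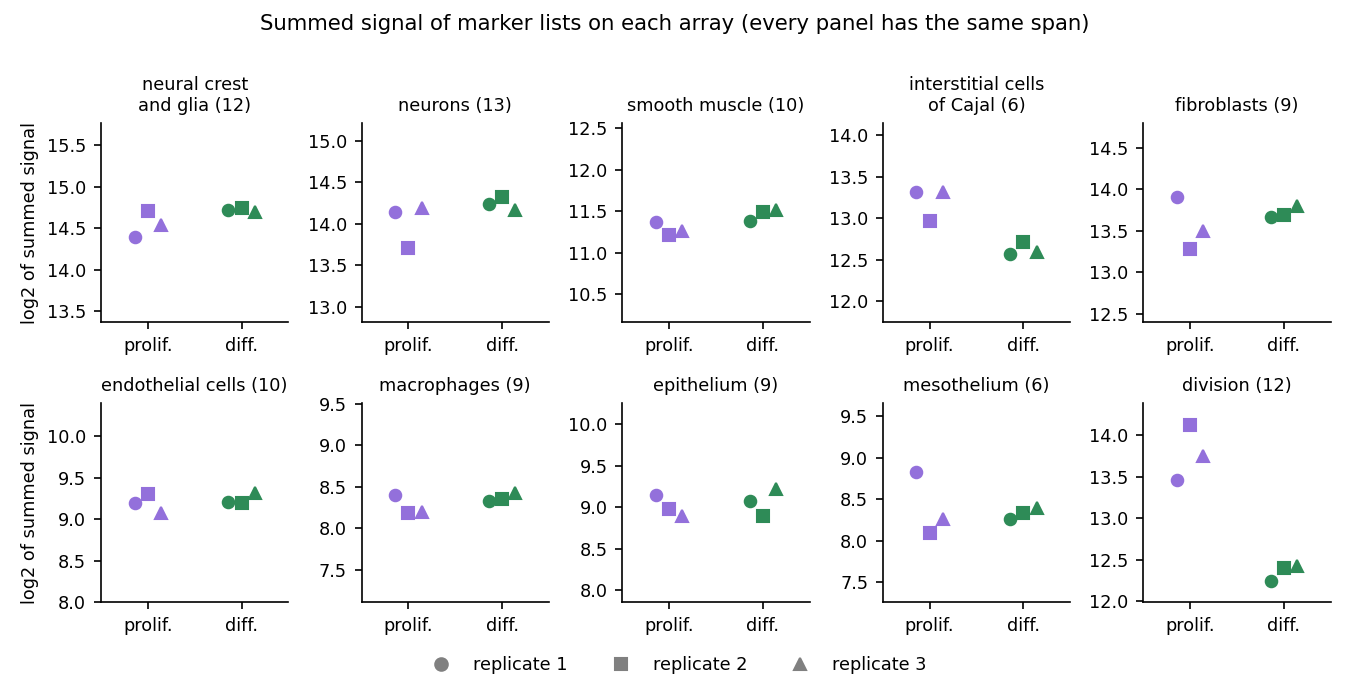
Log2 of the summed linear signal of each marker list on each array, with the number of genes in brackets and a symbol for each replicate number; all panels cover the same number of log2 units. Proliferation replicate 2 (square) is the lowest proliferation array for neurons, interstitial cells of Cajal, fibroblasts, smooth muscle, mesothelium and macrophages. It is the highest for neural crest and glia, for endothelial cells and for division.

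Genes that work with the guidance receptors were listed by role, and 90 of them were measured. Of these 7 rose, 5 fell and 78 did not pass, so that 13.3% changed beside 5.91% of all genes, and their median log2 fold change was 0.01. The groups did not overlap in 46.7% of the partner genes, beside 42.1% of the guidance genes and 27.5% of all genes. In limma 34.4% of the partner genes had an unadjusted p under 0.05, beside 36.8% and 19.1%. With clusters under the median cluster mean removed, 15 of 82 partner genes passed (18.3%), beside 11.9% of all clusters kept, a share of clusters and not of genes. The lists were short and differences between them were not tested. Over all genes 2.94% rose and 2.97% fell. Among 18 partners of Slits and Robos 3 rose and none fell (16.7% changed). Among 20 partners of netrins, Dcc and Unc5 receptors 1 rose and 2 fell (15%). Among 26 cytoplasmic partners of ephrins and Ephs 2 rose and 3 fell (19.2%). Of 5 proteases that cut guidance proteins 1 rose (20%). No gene of 12 RGM and neogenin partners passed limma's test, and 3 (25%) had an unadjusted p under 0.05, beside 19.1% of all genes.

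Among the changed partners were 3 heparan sulfate proteoglycans. Gpc1 encodes glypican 1, which binds Slits, and rose from 11.50, 11.28 and 11.59 to 12.52, 12.46 and 12.52 (log2 fold change 1.04, SE 0.10, adjusted p = 0.00488). Sdc1 encodes syndecan 1 and rose from 9.25, 8.74 and 9.09 to 10.16, 10.25 and 10.20 (log2 fold change 1.17, SE 0.14, adjusted p = 0.00765). Gpc3 encodes glypican 3, a ligand of Unc5 receptors, and fell from 9.83, 10.40 and 9.95 to 8.20, 8.57 and 8.40 (log2 fold change -1.67, SE 0.17, adjusted p = 0.00571), a 3.18-fold decrease. In all 3 genes the groups lay far apart compared with their spread. Gpc1 and Gpc3 passed with any 1 array left out, and Sdc1 missed the threshold without differentiation replicate 1 (adjusted p = 0.0507). Proteoglycans of this kind carry many other ligands besides guidance molecules.

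Srgap1, a GTPase-activating protein that binds Robo receptors and that the study names, rose from 9.21, 9.07 and 9.14 to 9.82, 9.78 and 9.65 (log2 fold change 0.61, SE 0.09, adjusted p = 0.0141). Chn2 encodes beta-chimaerin, a Rac GTPase-activating protein, and rose by 1.24 on the log2 scale (SE 0.16, adjusted p = 0.0102). Its values were 9.02, 8.38 and 8.76 in proliferation and 9.91, 9.97 and 10.00 in differentiation, with no overlap. Sipa1l1, a RapGAP of the postsynaptic density that is linked to EphA receptors, fell 1.72-fold (log2 fold change -0.78, adjusted p = 0.0118). Adam10, the protease that cleaves ephrins from the cell surface, rose from 10.41, 10.34 and 10.28 to 10.85, 10.85 and 10.84 (log2 fold change 0.50, adjusted p = 0.0172). Draxin, a secreted repellent that binds Dcc, rose by 0.58 (adjusted p = 0.0203) from a level below the median cluster mean, with arrays at 5.92, 5.76 and 5.75 in proliferation and 6.32, 6.35 and 6.50 in differentiation. Ablim1, an actin-binding protein, and Nck1, an adaptor of Eph receptors, fell, with log2 fold changes of -0.52 and -0.43 (adjusted p = 0.048 and 0.0453). Abl2, a tyrosine kinase, rose by 0.42, and Arhgef15, the exchange factor ephexin 5, fell by 0.40, with adjusted p of 0.0445 and 0.0346. Arhgef15 lay below the median cluster mean. Abl2, Arhgef15, Nck1 and Ablim1 missed the threshold with any 1 array left out, with adjusted p from 0.0705 to 0.208. The range with 1 array left out ran from 0.03 to 0.0734 for Sipa1l1, from 0.00929 to 0.0601 for Chn2, from 0.028 to 0.0886 for Srgap1, from 0.0311 to 0.103 for Adam10 and from 0.0294 to 0.0991 for Draxin.

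**Figure D5:**
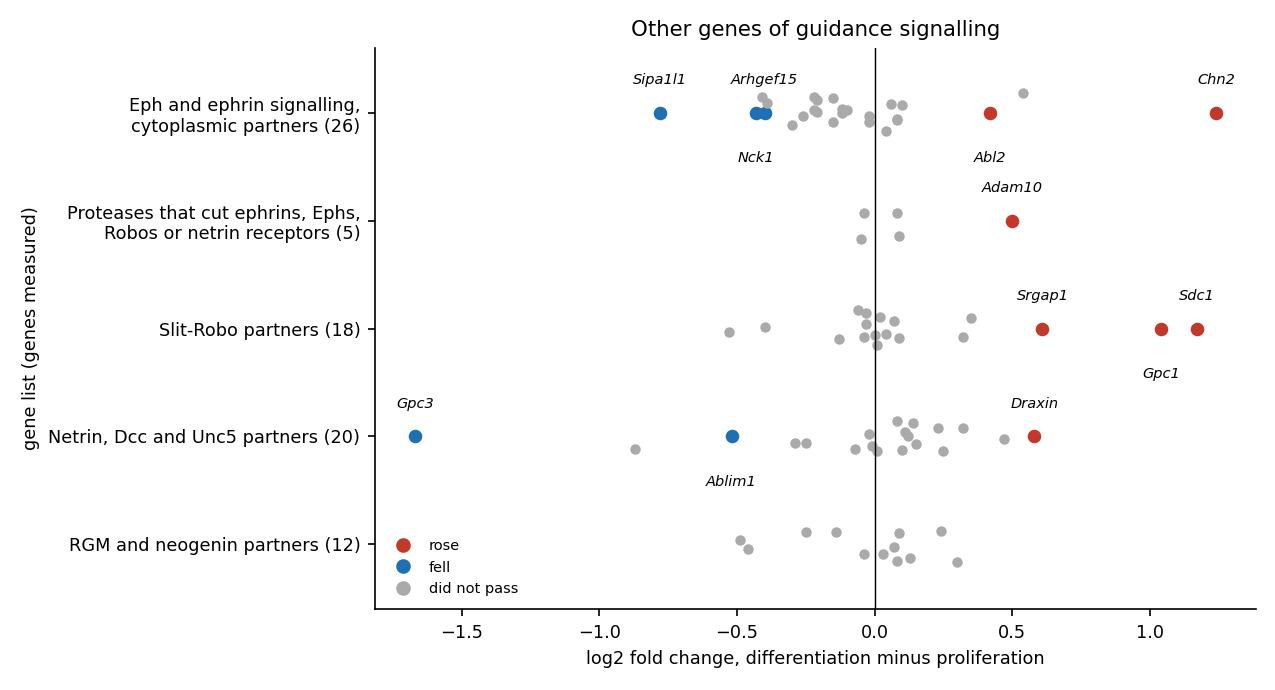
Each point is 1 gene of the 5 lists of partners described above, with its mean in differentiation less that in proliferation (log2 units) along the horizontal axis and a row for each list (number of measured genes in brackets). Red marks an increase and blue a decrease past limma's test with 3 arrays per group, grey marks genes that did not pass, and the vertical scatter carries no value; Gpc3 lies furthest to the left at -1.67 and Chn2 furthest to the right at 1.24.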

How the data were processed

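Total RNA of 6 enterosphere samples was hybridised to 1 GeneChip Mouse Gene ST array each by the authors, with scanning and control in AGCC and Expression Console software and RMA normalization in Partek. The deposited values are log2 RMA values per transcript cluster, with array medians between 6.115 and 6.185. A genome build was not given in the sources used here. RMA as usually run makes the arrays' distributions alike, so a change shared by most genes would not be seen. Array values carry no counts, so the number of arrays limits the precision.

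Symbols came from the platform's annotation: 21789 of 35556 clusters carried 1 symbol, 1621 carried several and named no gene, and 12146 carried none here. All 38 members were found under the same symbol in a RefSeq gene table. Groups and replicate numbers came from the sample titles. Differences were fitted with limma 3.58.1 in R 4.3.3 (lmFit and eBayes, group as the term, two-sided, 2.83 prior degrees of freedom) with Benjamini-Hochberg adjustment across the 35556 clusters, and intervals cover 95%. With 3 arrays a group the smallest exact permutation p is 0.1. The study's methods describe 3 independent experiments, each from the pups of 1 litter. Picked enterospheres were moved into either proliferation or differentiation medium. On that description both groups come from the same cultures, and the arrays are not all independent cultures. The main fit was unpaired, so its p-values measure the spread between cultures within a group. The labels do not say which arrays share an experiment. A block by replicate number pairs the cultures only if that number marks the experiment. The steps were tested on simulated data. Every guidance gene is reported, and of the partner lists the changed genes (at most 12, by size) and Srgap1, which the study names. Of each marker list at most 3 changed genes are named, those with the largest change, except for enteric neural crest and glia, where all 5 are named. Sox10, Ret, Pecam1 and Tie1 did not pass and are named as examples of signal level. The members and lists were chosen with earlier results of these data known. Some genes of the partner and marker lists are not reported here. The alternatives tried were a replicate block, limma-trend with robust estimation of the prior, cyclic loess, median centring, removal of dim clusters, array weights, 1 row per gene, the methods' t-test and leaving out each array.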

Additional observations from a re-analysis of the deposited data

How the results depend on the processing

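The 4 guidance genes that passed, 12 partner genes and 1459 transcript clusters of the whole array set the scale. The 4 genes also passed with limma-trend with a robust prior, cyclic loess, median centring, dim clusters removed and 1 row per gene, and Unc5b, Epha2 and Rgma passed the methods' t-test without correction and with at least a 1.5-fold change, where Ephb6 did not. With 1 array left out, 0 to 4 guidance genes, 2 to 9 partner genes and 294 to 1297 clusters passed, and no guidance gene passed without differentiation replicate 1, 2 or 3 (10, 13 and 12 at an unadjusted p under 0.05 in limma). The methods' t-test left 6 partner genes, and after Benjamini-Hochberg adjustment 0 guidance genes (12 at an unadjusted p under 0.05), 2 partner genes and 253 clusters. Array weights gave 17, 39 and 12721, resting on weights of 7.45 for differentiation replicate 1 and 3.62 for proliferation replicate 3 against 0.397 to 0.491 for the other arrays. The cause of these shifts was not tested.

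With the replicate number as a block, 0 guidance genes (12 at an unadjusted p under 0.05 in limma), 5 partner genes and 664 clusters passed, and the adjusted p of Unc5b, Epha2, Ephb6 and Rgma was 0.0724, 0.115, 0.123 and 0.124. The deviations of same-numbered arrays correlated at -0.00301, 0.0898 and -0.0742, and 1 of 6 arrays correlated best with its own number. The study's methods describe enterospheres of the same cultures going into both media, but the labels do not say that a number marks a shared preparation. If it does, this block is the paired fit of the design, and no guidance gene passed in it.

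None of the 4 guidance genes that passed changed direction under the alternatives run. Among the other guidance genes, the log2 fold change of Ntn4 was -0.01 with cyclic loess, -0.01 with median centring and -0.13 with array weights. Median centring gave -0.03 for Ephb3 and -0.02 for Neo1, array weights gave -0.17 for Efnb3, -0.09 for Epha3 and -0.07 for Epha6, and the mean of all clusters gave -0.01 for Epha10 and 0.09 for Ephb1. With 1 array left out the sign turned within these ranges: Epha4 -0.47 to 0.03, Epha7 -0.20 to 0.02, Ephb3 -0.03 to 0.05, Slit1 -0.02 to 0.12, Slit3 -0.44 to 0.24, Unc5c -0.50 to 0.15, Unc5d -0.23 to 0.02, Efnb3 -0.10 to 0.19, Epha3 -0.04 to 0.15, Ephb1 -0.11 to 0.09, Ntn4 -0.09 to 0.12, Dcc -0.02 to 0.29, Neo1 -0.04 to 0.10 and Epha10 -0.05 to 0.10. Array values give no depth, and 6 guidance genes below the median cluster mean had no detection call.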
